A study of Mus musculus with 24 samples.

Results

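The response of the wild-type mouse liver to phenobarbital was measured by comparing 2 livers given the drug with 2 given its corn oil vehicle. The 4 samples were those titled as wild type with phenobarbital (spelled phenobarbitol in the labels) or with corn oil, out of 24 in the series. Phenobarbital is a barbiturate anticonvulsant. All mice are stated to be female and of a mixed C57BL/6x129Sv strain, and no ages are given. Phenobarbital was injected into the abdominal cavity at 100 mg/kg once a day for 3 days, at 24 h intervals, and livers were taken 6 h after the last injection. Corn oil mice received the vehicle on the same schedule. The series crossed 3 genotypes (wild type, with mouse CAR; a CAR.KO knockout, mCAR -/-; and CAR.AH mice, that knockout carrying human CAR from an albumin promoter of the mouse) with 4 treatments (corn oil, phenobarbital, TCPOBOP and CITCO), with 2 mice in each of 12 groups and 1 array for each mouse. The knockout groups with phenobarbital and with corn oil, and the wild-type group with TCPOBOP, are the main groups used below for comparison. Values of the human CAR mice with phenobarbital and corn oil and of the wild-type CITCO mice are also given. CITCO was given 3 times at 30 mg/kg, at 24 h intervals. TCPOBOP, which the design text describes as a potent mouse CAR ligand, was given once at 3 mg/kg on the first day and followed by corn oil.

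CAR, encoded by Nr1i3, is a nuclear receptor that hepatocytes hold in the cytoplasm until it is activated. In the nucleus it pairs with RXR and switches on genes for the oxidation, conjugation and export of drugs, hormones and bile pigments. Phenobarbital is its classical indirect activator: it binds the EGF receptor, which lowers ERK signalling and lets CAR lose an inhibitory phosphate, whereas TCPOBOP binds CAR itself. In rodents, sustained activation of CAR enlarges the liver.

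All values are RMA expression levels on a log2 scale, on which 1 unit is a doubling, and each change is the mean of the phenobarbital arrays minus the mean of the corn oil arrays, with its standard error (SE). A value in parentheses after the levels of a gene, or after its name, is this change. Of 12393 genes on the array, 9167 were bright enough to be tested, and a gene was called when its limma p, adjusted by Benjamini-Hochberg over these 9167, was below 0.05. Of the 135 genes called for phenobarbital in wild type, 50 had another probe set that was bright on at least 2 of the 4 compared arrays, and in 19 of these at least 1 such probe set showed less than 50% of the change or the opposite direction. Levels of different genes come from different probes and are not compared with each other. The 24 arrays had medians between 5.41 and 5.51. The wild-type phenobarbital mice were the closest pair among the 12 groups: the difference between them had an SD over genes of 0.18 and only 13 genes were 2-fold or more apart, against 0.24 and 44 genes for the corn oil mice. In 2 groups not in the comparison the mice stood further apart, with an SD of 0.41 for knockout phenobarbital and 0.43 for human CAR phenobarbital. The number of arrays in a group limits the precision throughout.

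The receptor itself was present in the compared mice. Nr1i3 read 7.58 and 7.37 with corn oil and 7.98 and 7.92 with phenobarbital, and its change of 0.48 (SE 0.19) did not pass the test (adjusted p = 0.273). In the knockout it read 5.06 and 5.15 with corn oil and 5.20 and 5.38 with phenobarbital, below every wild-type array of these 2 treatments. Which part of the gene the probes read relative to the deletion is not given in the sources used here.

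Phenobarbital raised 82 genes and lowered 53, together 135 of the 9167 tested, or 1.47% (0.895% higher and 0.578% lower). At an unadjusted p below 0.05 there were 562 higher and 682 lower. The rises were the larger changes: 38 of the raised genes and 11 of the lowered genes changed at least 2-fold, while the median over all tested genes was 0.00. The markers of the response, all raised, were Cyp2b10, Cyp2c55, Gstm3 and Rarb. Leaving out each of the 4 arrays in turn reduced the calls to between 19 (without phenobarbital replicate 2) and 59 (without corn oil replicate 1), with 29 without corn oil replicate 2 and 51 without phenobarbital replicate 1. These fits take the lone array to vary as much as arrays of other groups do. In every one of them 17 raised genes (Cyp2b10, Cyp2c55, Gstm3, Gstt3, Ces2a, Gadd45b, Inmt, Rarb, Dusp6, Gstm1, Abcc3, 4931406C07Rik, Slc25a37, Slc13a2, Slc23a2, Ugt2b34 and Cyb5a) and 2 lowered genes (Map7d1 and Bhmt) kept the call, and every other call reported here was lost in at least 1 of them. The fit shares its estimate of the spread over all 24 arrays. On the 4 arrays alone 299 genes were called, 46.8% of them higher in place of 60.7%.

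The 2 phenobarbital mice did not read alike for the raised genes. Phenobarbital replicate 2 read above replicate 1 in 62 of the 82 raised genes, against 3888 of all 9167 tested, and in 22 of the 53 lowered genes.

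**Figure D1:**
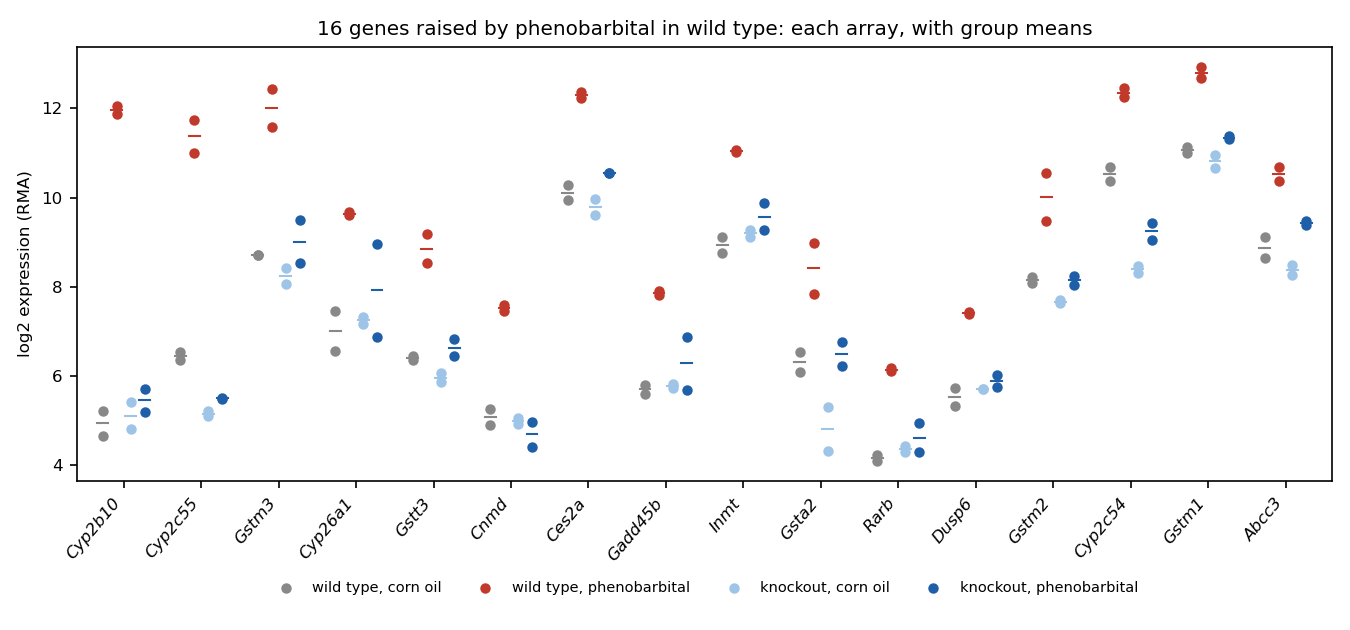
Log2 expression (RMA) of 16 genes among the largest rises, for both arrays of 4 groups; points are arrays and short lines are group means. In each gene both wild-type phenobarbital points lie above both wild-type corn oil points, and for Cyp2b10, Cyp2c55 and Rarb the knockout phenobarbital points stay below 6.

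The largest rises were in the oxidising enzymes that define the phenobarbital response. Cyp2b10, the P450 used as the standard readout of CAR, read 4.66 and 5.22 on the corn oil arrays and 11.88 and 12.06 on the phenobarbital arrays. This was a change of 7.03 (SE 0.38), with adjusted p = 2.34e-08. Its corn oil level was below the 40th percentile of the array, here called dim, on 1 of the 2 arrays. Its probe set, like that of Gstm3, is of a kind that can also bind close relatives of the gene. The other probe sets of Cyp2b10 differed by 5.97 and 7.31, and the first of these is not of that kind. Cyp2c55, a P450 that oxidises arachidonic acid, read 6.36 and 6.54 and then 11.01 and 11.74, a change of 4.93 (SE 0.44, 30.5-fold, adjusted p = 1.13e-05). For both genes the drug and vehicle mice were separated by many times the gap within either pair.

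Across the Cyp2b and Cyp2c list 4 of 13 tested members rose, none fell, and the median change was 1.26 against 0.00 over all genes. Cyp2c54 went from 10.68 and 10.36 to 12.25 and 12.46 (1.83, adjusted p = 0.00609). Cyp2c29, abundant in untreated liver, went from 10.97 and 11.02 to 12.11 and 12.40 (1.26, adjusted p = 0.00166). The remaining members did not pass. Cyp2b9, a P450 typical of females, differed by 2.06 with SE 0.80, Cyp2c37 by 1.92 (SE 0.89), and Cyp2c50 by 1.42 (SE 0.43). At the other end Cyp2c23, Cyp2c70 and Cyp2c68 differed by -0.25, 0.09 and 0.12.

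Among the other P450s and their electron donors 7 of 21 rose and none fell, with a median of 0.41, and these rises were of about 2-fold or less. Cyp3a11, the main drug-oxidising P450 of the mouse 3a family, went from 11.39 and 11.95 to 12.40 and 12.61 (0.83, adjusted p = 0.0101), Cyp3a25 differed by 1.05 and Cyp3a44 by 0.64. Cyp1a2, which oxidises caffeine and is usually assigned to the Ah receptor, went from 10.98 and 10.74 to 11.85 and 11.84 (0.98, adjusted p = 0.0287). Cyb5a, cytochrome b5, which passes electrons to P450s, rose by 0.79 (adjusted p = 4.49e-04), and Cyp2d10 by 0.44. Cyp2g1, best known from the nasal lining, read 4.55 and 4.47 and then 5.28 and 5.47 (0.86). It was dim on both corn oil arrays. Cyp2e1, the ethanol-oxidising P450, differed by 0.04 and Cyp1a1 by 0.24, neither passing.

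Each P450 carries a haem, and Alas1 makes the first committed step of haem synthesis. None of the 12 tested haem genes passed and their median was -0.01. Alas1 itself read 10.40 and 10.06 with corn oil and 10.69 and 10.73 with phenobarbital. Both drug arrays were above both vehicle arrays, by 0.48 on average, but with an SE of 0.48 the adjusted p was 0.717. Por, the P450 reductase, was not analysed here.

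Hydrolysing and reducing enzymes rose as well, 7 of 32 with none lower and a median of 0.31. Ces2a, a carboxylesterase that cleaves ester drugs and acylglycerols, went from 9.94 and 10.28 to 12.23 and 12.37 (2.19, SE 0.20, 4.56-fold, adjusted p = 1.13e-05). Ces1d differed by 1.60 (adjusted p = 0.00392) and Ces1c by 0.47, while Ces1g (1.29) and Ces1f (0.84) did not pass. Cbr1, a carbonyl reductase, rose by 1.17, Ephx1, the microsomal epoxide hydrolase, by 1.08, Aox1, an aldehyde oxidase, by 0.91 and Aldh1a7, an aldehyde dehydrogenase, by 0.87. The quinone reductase gene Nqo1 differed by 0.31 (SE 0.12) and did not pass.

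Glutathione transferases, which attach glutathione to reactive drug products, were the list with the highest share of rises. Of 20 tested, 8 rose and none fell, with a median of 0.58. The mu class led: Gstm3 went from 8.72 and 8.71 to 11.59 and 12.44 (3.30, SE 0.36, 9.85-fold, adjusted p = 7.44e-05), Gstm2 from 8.21 and 8.08 to 9.47 and 10.55 (1.87) and Gstm1, the most studied member, from 11.00 and 11.13 to 12.68 and 12.94 (1.74, adjusted p = 2.01e-05). Gstm4 rose by 1.43. In these 4 neighbouring genes replicate 2 was the higher of the phenobarbital mice every time, and for Gstm2 the mice were 9.47 and 10.55, more than 1 unit apart, with no overlap with corn oil. The theta class gene Gstt3 went from 6.44 and 6.35 to 8.54 and 9.18 (2.46, adjusted p = 4.08e-05) and its neighbour Gstt1 rose by 0.79. In the alpha class Gsta2 differed by 2.10 (SE 0.48, adjusted p = 0.0367) and Gsta4 by 1.22. Gstm6 (0.94), Gsta3 (0.62) and Gstp1 (-0.03) did not pass. None of the 12 genes that supply glutathione and UDP-sugars passed, although the median was 0.33 and Gclc, the catalytic subunit that limits glutathione synthesis, differed by 1.02 (SE 0.31).

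A list of targets of NRF2, the sensor of oxidative stress, had 4 of 16 members higher and a median of 0.64. The 4 were Gsta2, Gstm1, Gsta4 and Ephx1, all of which are also on the drug metabolism lists above. In 13 of the 16 both phenobarbital arrays lay above both corn oil arrays, against 24.9% of all genes tested. The other 12 did not pass, and the largest of their differences were 1.37 for Osgin1, 1.02 for Gclc, 0.69 for Srxn1, -0.68 for Hmox1 and 0.65 for Ugdh. Nqo1 and Gclm, often used to read NRF2, differed by 0.31 and 0.62.

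In the remaining conjugation and transport lists rises were fewer. Of 8 glucuronosyltransferases, which add glucuronic acid, 2 rose (Ugt2b34 by 1.09, adjusted p = 4.49e-04, and Ugt2b5 by 0.62), and the median was -0.03, with Ugt2b38 at -1.58 and not passing. Of 16 sulfo-, methyl- and acetyltransferases 2 rose, Inmt and Sult1c2. Inmt, an N-methyltransferase of indoleamines, went from 8.76 and 9.12 to 11.06 and 11.03 (2.11, 4.31-fold, adjusted p = 0.00115), and Sult1c2 differed by 1.02. Of 10 efflux pumps 1 rose: Abcc3, which exports glucuronides from hepatocytes into blood, went from 9.11 and 8.64 to 10.38 and 10.68 (1.66, SE 0.14, adjusted p = 1.13e-05). None of 10 drug uptake carriers passed, with Slco1a4 at 1.16, Slco1a1 at -1.34 and Slc22a7 at -1.08. The 9 drug metabolism and transport lists together held 142 tested members, with a median of 0.26. Of these members 31 rose (21.8%, against 0.895% of all genes tested) and none fell. These 31 were 37.8% of all raised genes.

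Some of the called genes lay side by side in the genome. Among the 9156 tested genes with a position, in chromosomal order, 13 pairs of neighbours were both called, 12 of them in 1 direction. These pairs took in 23 of the 135 called genes, where 1.47% of all tested genes were called. How many pairs such a share would give without any clustering was not tested. The clusters of raised genes were Gstm3, Gstm2, Gstm1 and Gstm4, then Cyp3a44, Cyp3a11 and Cyp3a25, and the pairs Gstt3 with Gstt1, Cyp2c55 with Cyp2c29, Ces1c with Ces1d, Gsta4 with Gsta2, Cbr1 with Setd4, and 4931406C07Rik with Taf1d. Cntd1 and Becn1 were both called lower, but their other probe sets differed less: Cntd1 by -0.73 on the probe set tested and by 0.05 and under 0.01 in size on the others, and Becn1 by -0.46 and -0.14. Lratd1, dim on all 4 compared arrays, rose beside Lpin1, which fell. Members of these families have similar sequences, so probes of 1 member may take signal from another.

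Outside drug metabolism 51 genes rose. Retinoic acid, the active form of vitamin A, acts through receptors such as RARB and is destroyed by CYP26A1, and both genes rose while the other 20 of 22 tested retinoid genes did not pass (list median 0.06). Rarb read 4.09 and 4.22 with corn oil, dim on both arrays, and 6.10 and 6.18 with phenobarbital (1.99, SE 0.19, adjusted p = 2.01e-05). Against the limit for a dim probe set the means differed by at least 2.26-fold, each dim array being put at that limit. Cyp26a1 read 7.46 and 6.56 and then 9.61 and 9.68 (2.63, SE 0.48, adjusted p = 0.0101). The phenobarbital mice were nearly equal for both genes, whereas the vehicle mice differed for Cyp26a1. The other retinoic acid receptors Rara (-0.13) and Rarg (0.12), the retinol-binding protein gene Rbp4 (-0.06) and the retinoid reductase Dhrs3 (0.16) did not pass. The largest differences among those not passing were -1.00 for the dehydrogenase Rdh9 and 0.71 for Aldh1a1.

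Rarb and Cyp26a1 also share a promoter element, which is why their promoters are printed. The windows, from RefSeq on GRCm38.p6, run 5′ to 3′ on the gene's strand from 250 bases before to 50 bases after the start of the gene, at chr14:16575427-16575726 on the minus strand for Rarb and at chr19:37697558-37697857 on the plus strand for Cyp26a1. Capitals mark a direct repeat of 2 elements of 6 bases, with 5 bases between them, a spacing bound by retinoic acid receptors but not by them alone. The elements accepted were AGGTCA (the consensus), AGTTCA (held by Rarb), GGTTCA (also held by Rarb) and GGGTCA (a further variant). In Rarb it begins 53 bases before the start, and in Cyp26a1 it lies on the opposite strand and so reads TGAACT, 32 bases before the start.
Rarb: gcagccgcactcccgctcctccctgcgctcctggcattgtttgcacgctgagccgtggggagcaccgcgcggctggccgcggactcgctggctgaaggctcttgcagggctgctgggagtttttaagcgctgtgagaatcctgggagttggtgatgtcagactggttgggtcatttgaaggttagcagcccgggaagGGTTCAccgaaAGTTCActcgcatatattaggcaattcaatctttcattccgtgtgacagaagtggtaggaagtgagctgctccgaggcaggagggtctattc
Cyp26a1: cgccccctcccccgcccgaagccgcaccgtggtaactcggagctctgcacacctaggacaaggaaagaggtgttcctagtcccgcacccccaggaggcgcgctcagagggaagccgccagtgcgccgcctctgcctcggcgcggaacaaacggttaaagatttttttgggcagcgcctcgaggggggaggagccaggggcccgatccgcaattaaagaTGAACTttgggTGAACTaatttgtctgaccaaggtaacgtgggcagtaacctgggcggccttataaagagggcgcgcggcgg

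The repeat, searched on both strands, is rare in such windows. It was in 32 of 32851 promoter windows (0.0974%), or in 31 of 27025 genes (0.115%). Of 67 raised genes with a window, Rarb and Cyp26a1 held it. The forms accepted include both elements of the Rarb promoter, so the match of Rarb was given by the search. Without it the share was 1 of 66 raised genes (1.52%), the 1 being Cyp26a1. Cyp26a1 was named for this search together with Rarb, and both its elements are AGTTCA, a form held by Rarb. Neither match is thus independent of how the search was set up, and the shares are no test. The same elements with 4 bases between them, a spacing bound by CAR with RXR, were in 27 windows (0.0822%). None of these windows belonged to the 67 raised genes, which include Cyp2b10, Cyp2c55, Gstm3 and Gadd45b. Spacing alone does not tell which receptor binds, and binding was not tested. A match is a description of the sequence, and the absence of one says only that these letters are not in this window.

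Growth and signalling genes gave single rises rather than group changes. Gadd45b, a stress-induced protein that binds CAR, went from 5.60 and 5.80 to 7.82 and 7.90 (2.16, 4.47-fold, adjusted p = 4.49e-04) and was the only one of 20 growth control genes to pass. Its other probe sets differed by 0.18 and 1.85. Its relatives differed by 1.37 for Gadd45a (SE 0.80) and -2.02 for Gadd45g (SE 0.91), neither passing. Junb (-1.43), Igfbp1 (-1.29), Myc (0.63) and Ccnd1, cyclin D1 (0.17), also did not pass.

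The EGF receptor branch, through which phenobarbital acts, held 1 rise and 1 fall among 18 tested genes (median 0.08). The shares over all genes tested were 0.895% higher and 0.578% lower. Dusp6, a phosphatase that switches off ERK and is itself usually an ERK target, went up from 5.32 and 5.73 to 7.44 and 7.39 (1.88, SE 0.24, 3.69-fold, adjusted p = 4.49e-04). Egfr, the receptor, went down from 10.34 and 10.34 to 9.50 and 9.20 (-0.99, SE 0.17, adjusted p = 0.00583). Its other probe sets differed by -1.64, -1.53, 0.09 and -0.29. Egr1, an early gene induced by ERK, read 7.34 and 6.56 with corn oil and 5.46 and 5.36 with phenobarbital (-1.54), which with an SE of 0.90 did not pass. Errfi1, a feedback inhibitor of the EGF receptor, differed by -1.01 (SE 0.30, adjusted p = 0.133) and by -1.30 on its second probe set, and did not pass either. Nor did Dusp1 (-0.47), Lrig1 (-0.44) and Erbb3 (0.32), which had the next largest differences, or Spry1 (0.02) and Etv4 (0.27).

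Of the proteins that work with CAR, 2 fell and 1 rose among 23 tested genes (median -0.07). Over all genes tested 0.578% were called lower and 0.895% higher. Rxra, the obligate partner of CAR and of many other nuclear receptors, went from 9.38 and 9.27 to 8.44 and 8.48 (-0.86, SE 0.14, adjusted p = 0.00583). Foxa3, a liver forkhead factor, went from 8.38 and 8.21 to 6.74 and 6.40 (-1.73, SE 0.27, 3.31-fold lower, adjusted p = 0.00344). Nrip1, a corepressor, rose by 0.65 (adjusted p = 0.0458). The related factors Foxa1 (0.54), Foxa2 (0.36) and Rxrb (-0.11) did not pass, nor did Nr0b2, the corepressor SHP, at 1.26 (SE 0.40), nor Nr1i2, the related receptor PXR, at -0.07.

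The remaining large rises came from varied genes. Slc23a2, a vitamin C carrier, went from 7.18 and 6.99 to 8.28 and 8.28 (1.20, adjusted p = 4.49e-04), Slc13a2, a citrate carrier, rose by 1.20 and Slc25a37, the mitochondrial iron importer mitoferrin, by 1.41. Cnmd, known as a cartilage protein, changed from 5.26 and 4.89 to 7.45 and 7.60 (2.45). Serpina6, which carries corticosterone in plasma, rose by 1.57, Adssl1, a purine enzyme, by 1.55, Pla2g6, a phospholipase, by 1.28 and 4931406C07Rik by 1.50. Car8 rose by 1.70, while its second probe set differed by 0.75. The chemokine gene Ccl9 rose by 1.53 (adjusted p = 0.0216).

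**Figure D2:**
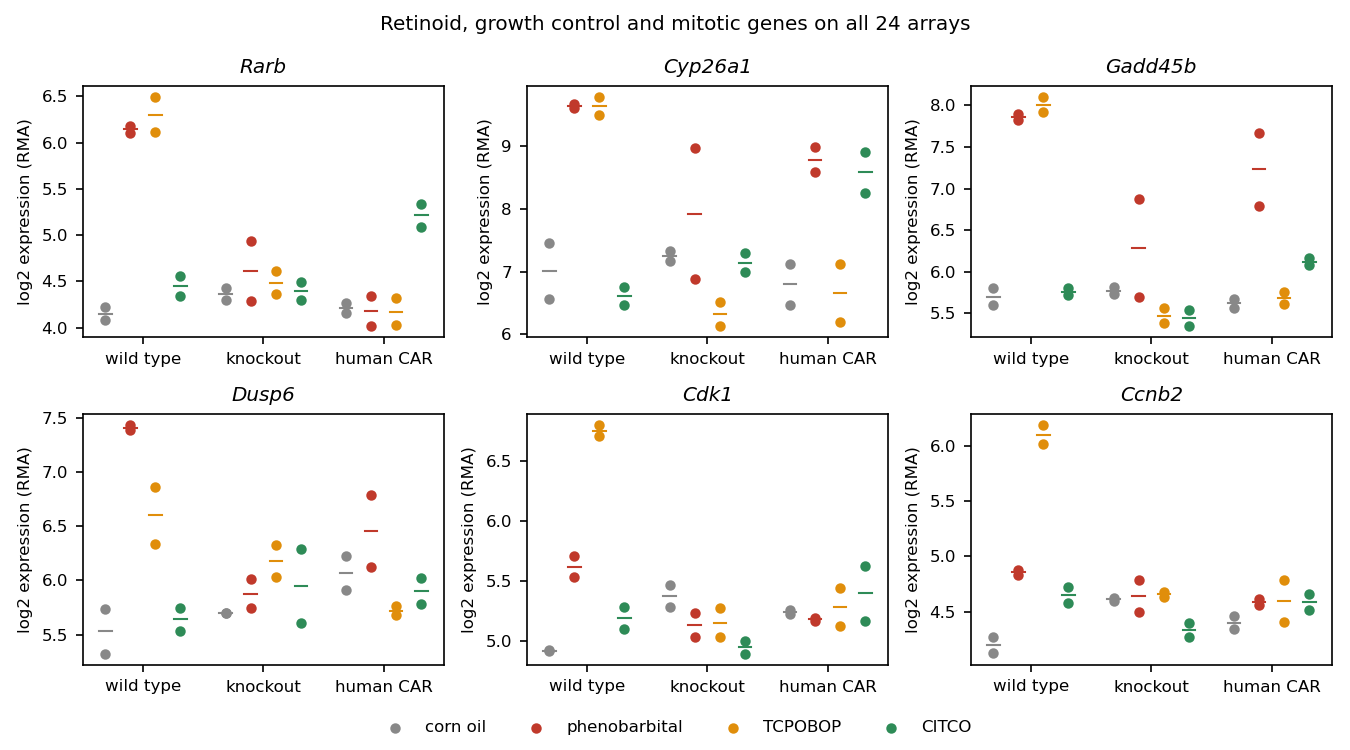
Log2 expression (RMA) of 6 genes on all 24 arrays, by genotype along the x axis and treatment by colour; points are arrays and short lines are group means. Rarb reached 6.10 and 6.18 with phenobarbital in wild type, and Cdk1 and Ccnb2 are highest on the 2 wild-type TCPOBOP arrays.

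The falls were led by Cxcl1, a chemokine that attracts neutrophils. It read 9.04 and 10.24 with corn oil and 4.50 and 4.18 with phenobarbital, dim on both drug arrays, a change of -5.30 (SE 1.14, adjusted p = 0.0259). With the drug arrays put at the limit for a dim probe set, their mean was at least 24.6-fold lower. This limit leaves out the spread between mice. The gene varied widely between the human CAR mice given vehicle, at 10.38 and 6.81. Both phenobarbital values were below all 6 corn oil arrays of the series, as in 51 of the 53 lowered genes and 13.5% of all genes tested. The wild-type corn oil arrays among the 6 were part of the call. Scara5, a receptor for ferritin, went from 8.18 and 8.71 to 4.94 and 5.23 (-3.36, adjusted p = 0.0259), while its second, dimmer probe set differed by 0.26. Lpin1, which makes diacylglycerol and coactivates PPARalpha, went from 8.08 and 9.01 to 5.92 and 5.95 (-2.61, SE 0.60, adjusted p = 0.0414). The calls of Cxcl1, Scara5 and Lpin1 were each lost when any 1 of the 4 arrays was left out.

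**Figure D3:**
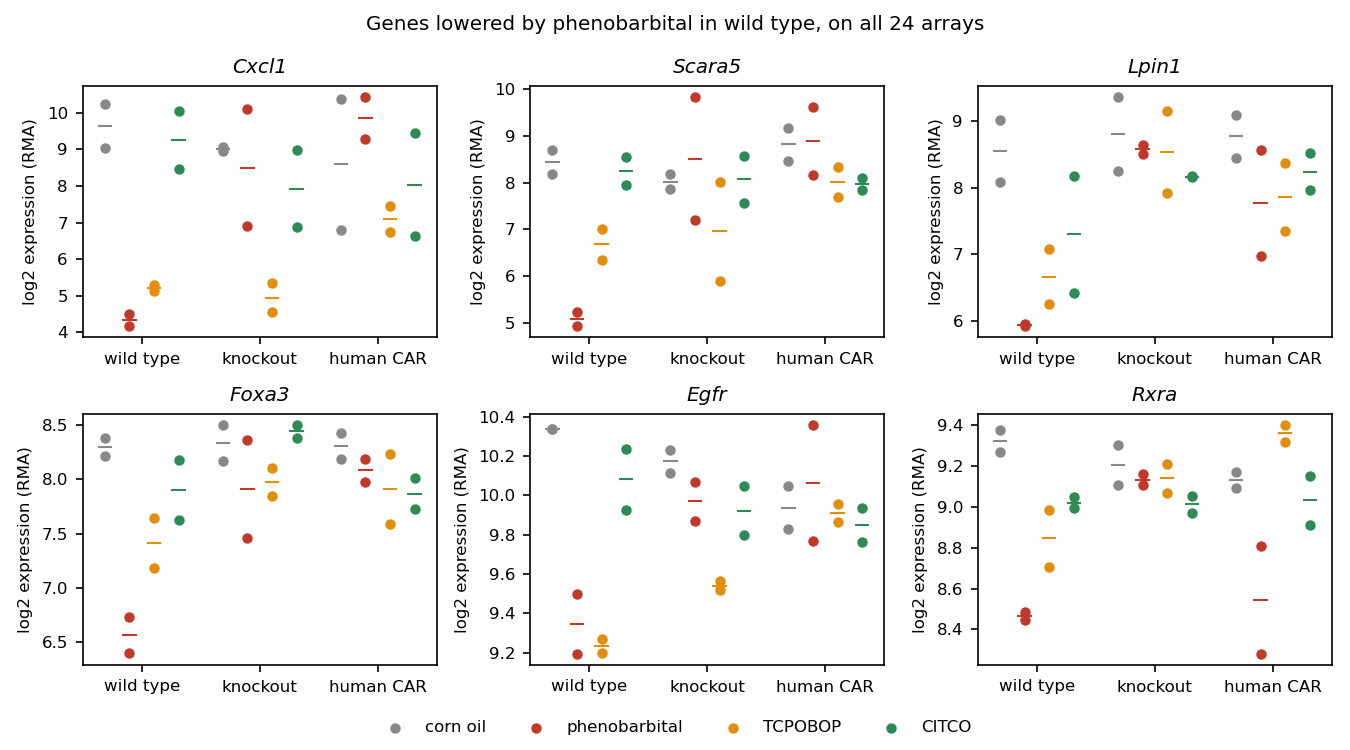
Log2 expression (RMA) of 6 genes lowered by phenobarbital in wild type, on all 24 arrays, by genotype along the x axis and treatment by colour; points are arrays and short lines are group means. The 2 wild-type phenobarbital points lie below all 6 corn oil points in each panel, and the corn oil points of Cxcl1 run from 6.81 to 10.38.

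Other falls touched metabolism and secreted proteins. Bhmt, which remakes methionine from homocysteine with betaine, went from 11.96 and 11.96 to 10.89 and 10.63 (-1.20, SE 0.16, adjusted p = 8.78e-04), and Dmgdh, which acts on the product of that reaction, fell from 9.43 and 9.20 to 8.75 and 8.72 (-0.58, adjusted p = 0.0416). They were the 2 of 17 methionine and methyl group genes to pass, with a list median of -0.18. Creld2, a protein of the endoplasmic reticulum, went from 8.38 and 8.19 to 6.82 and 6.43 (-1.66). It was the 1 of 27 genes of endoplasmic reticulum stress to pass (median -0.26), with the chaperone Hspa5 at -0.63 and Ddit3 at -0.01. Map7d1, a microtubule-associated protein, went from 7.35 and 7.43 to 6.15 and 6.26 (-1.19, adjusted p = 0.00134). Gnat1, a transducin of the retina, fell by 1.71 to levels that were dim on both drug arrays. Ldha, lactate dehydrogenase, fell by 0.91, Lrp1, a lipoprotein receptor, by 0.84 and Atf5 by 0.93. Avpr1a, the vasopressin receptor, fell by 0.67, while its second probe set differed by -0.19.

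Of 28 acute phase and chemokine genes, 2 fell (Cxcl1 and Saa4) and 1 rose (Ccl9), with 23 of 28 below 0 and a median of -0.28. This median was -0.45 without corn oil replicate 1 and -0.09 without corn oil replicate 2. Saa4, a serum amyloid protein, changed from 11.06 and 11.73 to 10.01 and 10.57 (-1.10). On no list, 2 secreted defence proteins, the complement component C9 (-0.95) and the peptidoglycan hydrolase Pglyrp2 (-1.02), also fell. No gene of the interferon list (18 tested, median -0.26) or the antigen presentation list (11 tested, median -0.32) passed.

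Markers of liver macrophages read lower in the same phenobarbital mice. Of 15 tested Kupffer cell and macrophage markers none passed, 14 were below 0, and the median was -0.44, or -0.23 without corn oil replicate 1 and -0.69 without corn oil replicate 2. Their summed signal on a linear scale was 4944 and 3702 in the corn oil mice and 3433 and 3034 in the phenobarbital mice, and no tested marker was dim on all 4 arrays. Clec4f, a lectin of Kupffer cells, read 8.97 and 8.41 and then 7.84 and 7.70 (-0.92, SE 0.29) and Adgre1 differed by -0.13. In the knockout the same list had 5 of 15 members lower with phenobarbital and a median of -1.21, where 50 of all 9167 genes (0.545%) were called lower. In whole liver, fewer cells of a type and less RNA per cell cannot be told apart, and the part of the macrophage markers in the falls was not tested. Markers of the other cells were nearer 0: the medians were 0.04 for 14 hepatocyte markers, -0.08 for 15 endothelial, -0.08 for 14 stellate, 0.14 for 10 neutrophil and 0.09 for 9 lymphocyte markers. The hepatocyte markers, Alb among them (13.24 and 13.30 with corn oil, 13.32 and 13.29 with phenobarbital), were bright on all 4 arrays.

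Lipid and sugar metabolism held few calls. None of 29 genes of fatty acid oxidation passed, with a median of -0.27 that ran from -0.39 to -0.16 with each array left out. The largest differences were 1.38 for Vnn1 and 1.08 for Cyp4a14, and Cpt1a, which admits fatty acids to mitochondria, differed by -0.68. Cholesterol synthesis had the lowest median of all lists, -0.52 over 19 genes with 17 below 0, but only Hsd17b7 passed (-1.02, adjusted p = 0.0428). Other enzymes of the pathway did not pass, such as Hmgcs1 at -1.45 with SE 0.78 and Sqle at -1.00 with SE 0.50. The list median lay between -0.88 without corn oil replicate 2 and -0.22 without corn oil replicate 1. Of 21 lipogenic genes only Lpin1 passed. None of 18 bile acid genes or 21 genes of gluconeogenesis and fasting passed: Cyp7a1, which sets the rate of bile acid synthesis, read 10.29 and 9.52 with corn oil and 9.19 and 8.42 with phenobarbital (-1.10, SE 0.83) and Pck1, the gluconeogenic enzyme PEPCK, read 10.38 and 10.75 and then 9.65 and 9.83 (-0.82, SE 0.66). Cyp7b1, of the alternative bile acid route, differed by -1.93 (SE 0.49). The median of the gluconeogenesis and fasting list was -0.36, and -0.35 to -0.14 with each array left out.

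**Figure D4:**
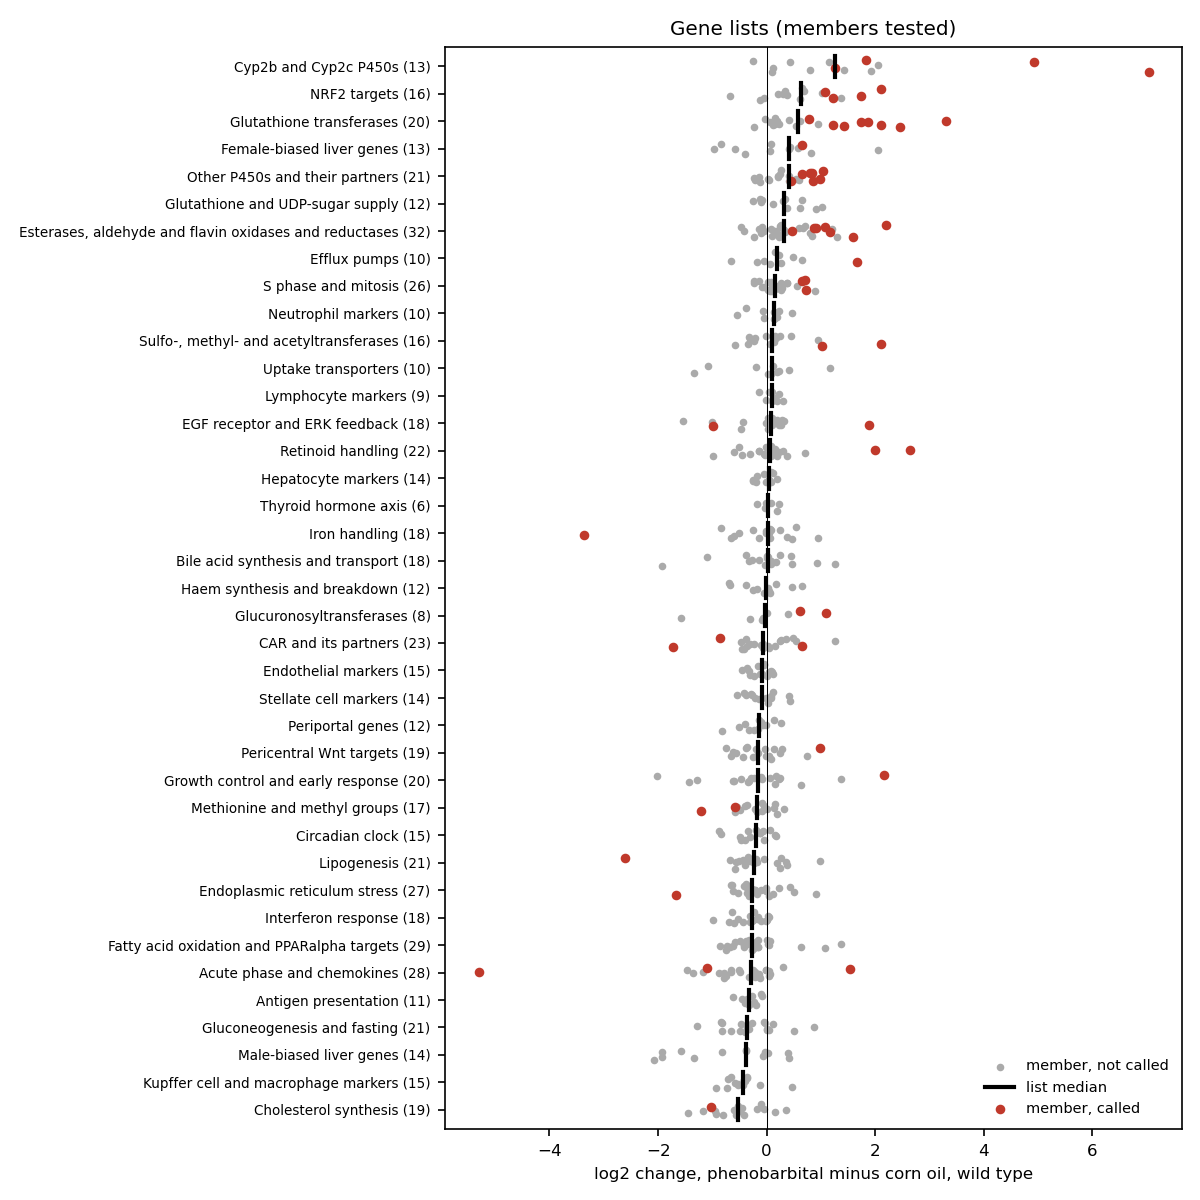
Log2 change with phenobarbital in wild type (x axis) of the tested members of 39 gene lists with at least 5 tested members; grey points are members that were not called, red points are called members, and black bars are list medians. The highest median is 1.26 for the Cyp2b and Cyp2c P450s and the lowest is -0.52 for cholesterol synthesis.

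Comparison with the knockout shows how far these changes differed where mouse CAR was absent. The 82 genes raised in wild type had a median change of 0.96 there and 0.10 in the knockout, and the 53 lowered genes -0.63 and -0.17, but all were chosen on the wild-type change. In the knockout phenobarbital was tested on the same 9167 genes and 67 were called (0.731%), 17 higher (0.185%) and 50 lower. Among the raised genes only Abcc3 was also called higher in the knockout (1.05, adjusted p = 0.0143). Cntd1 (on the probe set tested), Ms4a6b and C9 were called lower in both, and Slc23a2 and Spsb4, raised in wild type, were called lower in the knockout. The wild-type change minus the knockout change was then tested directly. It passed for 14 of 9167 genes (0.153%), 11 more positive in wild type and 3 more negative, and 431 and 407 had an unadjusted p below 0.05. This count moved when single arrays of each of the groups compared were left out. It moved most with the knockout phenobarbital mice, which differed from each other. Cyp2b10, Cyp2c55 and Slc23a2 passed whichever of the 8 arrays was left out, and Rarb and Bhmt passed in 4 of these 8 fits.

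Cyp2b10 differed by 0.34 in the knockout, where it read 5.42 and 4.81 with corn oil and 5.19 and 5.71 with phenobarbital, so the changes differed by 6.70 (SE 0.54, adjusted p = 9.80e-06). Cyp2c55 differed by 4.59 (adjusted p = 0.00403), reading 5.48 and 5.51 in the knockout with phenobarbital. Rarb differed by 1.74 (adjusted p = 0.0119) and read 4.94 and 4.29 in the treated knockout mice. Slc23a2 moved in opposite directions, up in wild type and from 7.53 and 7.42 down to 6.92 and 6.59 in the knockout (difference 1.92, adjusted p = 4.49e-04). Bhmt, lowered in wild type, read 11.55 and 11.86 with corn oil and 11.93 and 12.07 with phenobarbital in the knockout (difference -1.49, adjusted p = 0.012).

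Several large rises had smaller changes in the knockout whose difference from wild type did not pass. Gstm3 changed there by 0.77 (difference 2.53, SE 0.50, adjusted p = 0.0536), Gadd45b by 0.51 (difference 1.65, SE 0.39, adjusted p = 0.142) and Dusp6 by 0.18 (difference 1.70, adjusted p = 0.0536). Cyp26a1 read 8.97 and 6.88 in the 2 treated knockout mice and Gadd45b read 5.69 and 6.88, so in each gene 1 mouse was near its vehicle level and the other well above it. Cxcl1 in these mice read 6.90 and 10.09, on either side of the vehicle mice at 9.07 and 8.95.

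**Figure D5:**
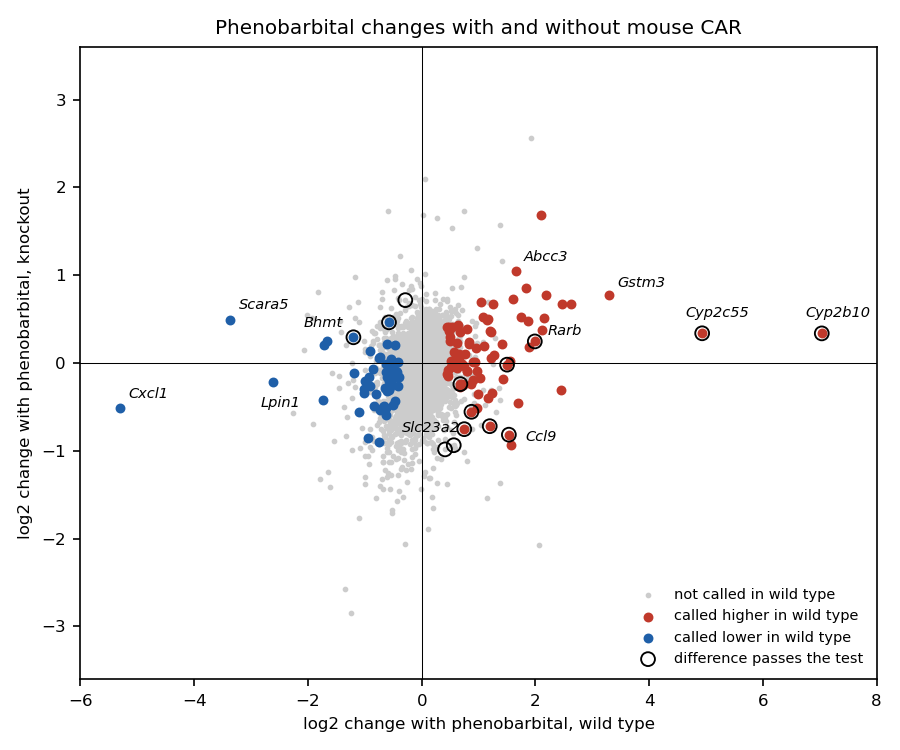
Log2 change with phenobarbital in wild type (x axis) against that in the knockout (y axis) for 9167 tested genes; red and blue points were called higher and lower in wild type and circles mark the 14 genes whose 2 changes differed. Cyp2b10 lies at 7.03 on the x axis and 0.34 on the y axis, and red points cluster near 0 on the y axis.

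The corn oil mice of all 3 genotypes give a wider background. Both phenobarbital arrays lay above all 6 corn oil arrays in 932 of 9167 tested genes (10.2%) and below them in 1233 (13.5%). Of the genes raised in wild type 79 of 82 were above, the exceptions being Rpl27a, Spsb4 and Ube2c, and of those lowered 51 of 53 were below, all but Gas5 and Ripor1. The wild-type corn oil arrays are among the 6 and were part of the calls.

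TCPOBOP in wild type shares the corn oil controls, so its changes are set beside those of phenobarbital without a count of agreement as a result. Cyp2b10 differed by 7.03 with phenobarbital and 7.42 with TCPOBOP, Cyp2c55 by 4.93 and 5.51, Gstm3 by 3.30 and 4.10, Rarb by 1.99 and 2.15, and Cyp26a1 by 2.63 and 2.63. The drugs themselves were compared directly, without the controls, at the different doses and schedules given above. Phenobarbital and TCPOBOP mice differed in 117 of 9167 genes (1.28%), 38 higher and 79 lower with phenobarbital, and 417 and 569 had an unadjusted p below 0.05. Leaving out each of these 4 arrays in turn gave between 34 and 70 calls, and 32 of the 117 passed in each.

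Genes of DNA replication and division were among those that differed between the drugs, 16 of 26 being lower with phenobarbital than with TCPOBOP. With phenobarbital 3 of 26 S phase and mitosis genes rose against corn oil, all slightly and from dim levels. Cdk1, the mitotic kinase, went from 4.92 and 4.91 to 5.54 and 5.70 (0.70). Ube2c, which marks mitotic proteins for destruction, rose by 0.72. Ccnb2, a mitotic cyclin, rose by 0.66 but was dim on all 4 compared arrays. The list median was 0.16 with phenobarbital and 1.01 with TCPOBOP. Mcm6, a subunit of the replicative helicase, read 5.24 and 5.76 with phenobarbital, on either side of the vehicle values of 5.70 and 5.41, and 7.59 and 8.33 with TCPOBOP, a difference of -2.46 (adjusted p = 1.14e-05). Mki67, the Ki-67 antigen, differed by -1.59, Birc5, survivin, by -1.82, Rrm2, which makes DNA precursors, by -1.52 and Cdk1 by -1.13. All 4 were lower with phenobarbital and passed. The largest difference was in Prom1, which read 4.35 and 5.45 with phenobarbital and 8.13 and 7.81 with TCPOBOP (-3.07, adjusted p = 5.55e-06), followed by Sult1e1, the oestrogen sulfotransferase (-2.87).

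In the other direction, genes higher with phenobarbital than with TCPOBOP included the retinoid enzymes Rdh16 (1.89), Rdh16f2 (1.82) and Retsat (1.50) and the P450s Cyp4f14 (1.36), Cyp2c38 (1.22) and Cyp2c23 (1.15). Against corn oil, Rdh16 differed by -0.02 and Cyp2c23 by -0.25, neither passing. Only 8 genes passed both against corn oil and against TCPOBOP. For 7 of them (Fhit, Lratd1, Ube2c, Cdk1, Ccnb2, Meig1 and Ybx3) phenobarbital gave the smaller rise. Of these 7, Lratd1, Ccnb2 and Meig1 were dim on all 4 arrays of phenobarbital and corn oil. Among the 8 genes Cyp2g1 was the exception: it differed by 0.86 with phenobarbital and 0.07 with TCPOBOP, a difference of 0.79 (adjusted p = 0.0139). For Dusp6 and Rxra the drugs differed by 0.81 (adjusted p = 0.14) and -0.38 (adjusted p = 0.288), neither passing.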

How the data were processed

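Total liver RNA from 24 mice was extracted with TRIzol, labelled with biotin and hybridised to Affymetrix arrays, 1 array for each mouse, per the labels. The deposited values are log2 expression levels, for which the authors ran RMA (R 2.15.0), per the submitters' processing notes. RMA quantile-normalizes the arrays, which removes any shift shared by most genes, and it compresses changes of dim probe sets. The table held 22690 probe sets, 64 of them controls, with values from 2.03 to 14.1. The platform annotation paired 20380 with 1 gene symbol and 691 with several, and 1555 were not listed. A gene was read from its probe set with the highest mean over all arrays. Genes were tested if above the 40th percentile of an array on at least 2 arrays. With limma 3.58.1 (R 4.3.3) a mean was fitted for each of 12 groups over 24 arrays (lmFit, eBayes, 12 residual degrees of freedom), and p-values were adjusted by Benjamini-Hochberg over 9167 genes. The script was tested on simulated data. No 2 arrays held the same values (at most 0.0491% of values equal in a pair). Alternatives in normalization, filter, probe sets, variance model, array weights, arrays used, threshold, replicate block and left-out arrays were run. No hybridisation batch is given in the sources used here, so a batch and a group cannot be told apart.

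The named genes were set by rule: 13 chosen outright, the 25 largest rises and 25 largest falls, and genes kept with each array left out. The rule added the 10 largest differences from knockout and from TCPOBOP in each direction. It also added all called members of 41 gene lists and up to 5 others of each list. Not all of them are given above: the falls Cdip1, Hs6st1, Cyth1, Tmem19 and Slc37a3 are among those left out. Other genes given as values were chosen after their values were seen. Members and lists were chosen with earlier results of these data known.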

Additional observations from a re-analysis of the deposited data

Results flagged for a closer look

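The phenobarbital change differed between wild-type and knockout mice, by the test of the difference in limma, for 14 genes, with all adjusted p-values over the 9167 genes tested. Differences are the change in wild type minus that in the knockout, on the log2 scale. The largest were 6.70 for Cyp2b10, 4.59 for Cyp2c55, 2.35 for Ccl9, 1.92 for Slc23a2 and 1.74 for Rarb. Between them and the smallest positive difference lay 4931406C07Rik (1.52), Spsb4 (1.50), Stmn1 (1.50), Aldh1a7 (1.43) and Slc22a26 (1.39), with Tnfaip2 at 0.92. The negative differences were -1.00 for Hsd17b10, -1.04 for Dmgdh and -1.49 for Bhmt.

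In 3 of the 14 genes, Stmn1, Slc22a26 and Hsd17b10, the wild-type change alone did not pass. Stmn1, a regulator of microtubules, differed by 0.56 in wild type and -0.94 in the knockout. Slc22a26, a transporter typical of females, differed by 0.41 and -0.98, and its knockout corn oil mice read 7.55 and 7.01, above both wild-type corn oil mice at 6.01 and 6.11. Hsd17b10, a mitochondrial dehydrogenase, differed by -0.29 and 0.72. Ccl9 rose from 8.03 and 8.21 to 9.41 and 9.89 in wild type, while the knockout corn oil mice read 9.03 and 9.40. Spsb4 likewise read 5.42 and 5.59 in untreated knockout mice against 4.83 and 4.86 in wild type, and these vehicle groups were not tested against each other.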

How the results depend on the processing

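For phenobarbital against corn oil the count of 135 calls became 410 with array weights, 342 with the wild-type arrays alone, 299 with the 4 arrays alone and 246 without the 2 arrays that stand apart (knockout phenobarbital replicate 2 and human CAR phenobarbital replicate 1), of which 45.9%, 45.9%, 46.8% and 50.4% were higher. It was 49 with a 2-fold limit and 43 at an adjusted p below 0.01. Leaving out each array in turn gave 19 to 59. The 14 differences from knockout became 28 with cyclic loess, 22 with array weights, 42 with the wild-type and knockout arrays alone and 3 at an adjusted p below 0.01, and 4 to 176 with each array left out. The 117 differences from TCPOBOP became 331 with array weights, 332 with the wild-type arrays alone, 234 without the 2 arrays that stand apart, 43 with a 2-fold limit and 52 at an adjusted p below 0.01, and 34 to 70 with each array left out. The cause of these shifts was not tested. The other alternatives stayed within 1.5 times of these counts. The labels give the groups the same replicate numbers, and nothing says that a number marks a shared litter, batch or day. With the replicate block the counts were 145, 15 and 117, and the deviations of phenobarbital and corn oil replicates of the same number correlated at 0.16 over genes. No named gene that passed changed direction under any alternative run. Of 77 such genes, 9 lost the call with cyclic loess, 4 without the filter on dim genes, 7 with the mean of probe sets, 9 with the trend and robust prior, 6 with the 4 arrays alone and 1 with the wild-type arrays alone. With the stricter filter on dim genes only 70 of the 77 were tested, and these kept the call. More calls were lost when 1 of the 4 compared arrays was left out, and the genes that kept theirs are named above. With each array left out, the medians of 27 of 40 gene lists moved by over 1.5 times or changed sign (9 changed sign), 7 of them with a median of at least 0.25 in size. With 2 mice a group, changes of dim genes are the least certain.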

Other observations

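Genes that differ between the sexes in mouse liver were also read in these mice, stated to be female. On the wild-type corn oil arrays the male-biased Cyp7b1, Slco1a1, Hsd3b5, Ugt2b38 and Moxd1 averaged 11.18, 9.94, 9.52, 6.93 and 6.10. All were above the mean dim limit of these arrays, 4.96. Of the female-biased genes, Cyp2b9, Cyp3a44, Prom1 and Acot3 averaged 4.29, 4.43, 4.09 and 4.94, below it. Cyp17a1 and Trim24, also female-biased, averaged 7.58 and 6.60. The sex of the mice was not tested from these levels. Of 13 tested female-biased genes only Cyp3a44 passed, with a list median of 0.41 that was 0.07 with the stricter filter on dim genes and 0.22 without corn oil replicate 2. Of 14 male-biased genes none passed, with a median of -0.38 that ran from -0.52 to -0.23 with each array left out. Low members of the male-biased list were Cyp7b1, an oxysterol hydroxylase, at -1.93 (SE 0.49), Hsd3b5 at -1.92 (SE 1.17) and Moxd1 at -2.07 (SE 1.16). Among 19 genes expressed around the central vein Cyp1a2 alone passed (median -0.16), with Glul, glutamine synthetase, at -0.75 and Axin2 at -0.24. None of 12 periportal genes passed (median -0.14). None of 15 clock genes passed (median -0.20), with Dbp at -0.88 (SE 0.83) and Per1 at -0.84 (SE 0.24). In the iron list 1 of 18 passed, Scara5, and Hamp, hepcidin, differed by -0.60 (SE 0.43). None of 6 genes of the thyroid hormone axis passed (median 0.03), nor Dlk1 (0.27) or Meg3 (0.01) of the Dlk1-Dio3 imprinted region, nor any of 3 cholangiocyte markers (median -0.02).

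Gstp3, a pi class glutathione transferase, was high in the 4 compared mice and in 1 mouse given TCPOBOP. It read 11.67 and 10.83 with corn oil and 11.53 and 11.44 with phenobarbital in wild type, a change of 0.23 that did not pass. In the wild-type TCPOBOP mice it read 6.81 and 10.14, and in the wild-type CITCO mice 6.54 and 6.66. The knockout mice read 6.46 and 6.42 with corn oil and 6.35 and 6.31 with phenobarbital. Among genes higher with phenobarbital than with TCPOBOP it had the largest difference (3.00, adjusted p = 0.0188), and the TCPOBOP mice themselves lay far apart. As the wild-type vehicle and CITCO mice also lay far apart, a drug difference in Gstp3 cannot be told apart from other differences between these mice.

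In the mice with human CAR, phenobarbital changed Cyp2b10 from 8.22 and 8.82 to 11.22 and 11.37 (2.78, adjusted p = 0.00807), beside 7.03 in wild type, from a higher corn oil level. Gadd45b differed by 1.61 (adjusted p = 0.0261) beside 2.16, Cyp2c54 by 1.71 beside 1.83, and Cyp2c29 by 1.48 beside 1.26. Rarb differed by -0.03 there and did not pass. Whether these changes differ between the genotypes was not tested.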
